A study of Mus musculus with 12 samples.

Results

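The genes described here are 10 genes that carry out or control the loading of peptides on MHC class I molecules: the class I heavy chains H2-K1 and H2-D1, their common light chain B2m, the peptide transporter genes Tap1 and Tap2, the loading bridge Tapbp (tapasin), the immunoproteasome subunits Psmb8, Psmb9 and Psmb10, and the class I transactivator Nlrc5. They were found by mapping the Ensembl identifiers of the deposited count table to mouse symbols. All 10 were among its 54232 genes, and all 10 passed the count filter that left 16281 genes for testing. Across the 12 libraries these 10 genes together took between 0.472% and 0.718% of all counts.

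MHC class I molecules show peptides from inside a cell to CD8+ T cells. The peptides are cut by the proteasome, carried into the endoplasmic reticulum by the Tap1-Tap2 transporter and loaded on a heavy chain paired with B2m, with tapasin holding the transporter and the empty molecule together. Interferons and other inflammatory signals replace the standard catalytic subunits Psmb5, Psmb6 and Psmb7 with Psmb8, Psmb9 and Psmb10, which changes the peptides that are cut. Nlrc5 acts in the nucleus on the promoters of most genes of this pathway. Macrophages use the pathway both for their own proteins and for material they have taken up.

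The cells were bone marrow derived macrophages (BMDMs) from wild-type C57BL/6 mice, which the study's methods give as 6 to 8 weeks old, grown with M-CSF. After 5 days in culture they were kept for 24 h with or without tumor-conditioned medium (TCM) and with or without 500 nM R788 (fostamatinib, a prodrug whose active form inhibits Syk, a tyrosine kinase). The medium was conditioned by 1 of 2 mouse neuroblastoma lines, NB9464, which carries amplified MYCN, and NBT3L, which does not. The 6 groups of 2 libraries were NS (neither TCM nor R788) and R788 without TCM, NB9464 TCM and NB9464 TCM + R788, and NBT3L TCM and NBT3L TCM + R788. NB9464 TCM was collected in DMEM without serum, whereas the BMDMs were grown in RPMI with serum. How NBT3L TCM was prepared, which medium the NS and R788 cells received and the vehicle of R788 are not given in the sources used here, so TCM cannot be told apart from a change of base medium or serum. Each TCM comes from 1 cell line, and amplified MYCN cannot be told apart from any other difference between the lines. No label says that the 2 libraries of a group came from separate mice or cultures, so the p values measure the spread between these libraries, which may be technical.

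Total counts ranged from 44977847 to 56449685 per library. Library SJ8, 1 of the 2 R788 libraries, had the fewest detected genes (16149, against 17275 to 18343 in the others). Several results that rest on it, but not all, are also given without it. The macrophage label fitted the markers: the 8 macrophage genes (Adgre1, Csf1r, Cd68, Lyz2, Itgam, Fcgr1, Mertk, Cd14) summed to between 72383 and 86874 TPM (counts divided by gene length and scaled to the same total in every library). The 4 T cell genes summed to at most 0.37 TPM, Siglech had no counts in any library, and Ly6g, which defines neutrophils, did not exceed 3.8 normalized counts. Xcr1, a dendritic cell gene, was higher with TCM but scarce, with 15.0 and 9.48 normalized counts in NS, 60.3 and 32.5 in NB9464 TCM and 40.8 and 80.1 in NBT3L TCM. Of 5 neuroblastoma genes, Th had no counts anywhere. The other 4 had none in NS and R788, and the list summed to between 0.449 and 1.35 TPM in the TCM libraries. As RNA was measured in bulk, fewer cells of a type and less RNA per cell cannot be told apart.

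In unstimulated macrophages the class I genes spanned a wide range of abundance. On the TPM scale, which corrects for gene length, B2m was the 7th most abundant gene in NS (7766 ± 105 TPM, SD, n = 2), followed by H2-D1 (2768 ± 68.9) and H2-K1 (1679 ± 30.9). Tapbp had 389 ± 20.2 TPM, Psmb10 188 ± 8.09, Psmb8 139 ± 2.86, Tap1 80.5 ± 4.0, Psmb9 59.3 ± 7.77, Tap2 43.7 ± 1.45 and the transactivator Nlrc5 24.0 ± 0.612. The ranges of the 2 NS libraries did not overlap between any neighbours in this order. Among the standard catalytic subunits, Psmb6 (327 ± 20.7 TPM) and Psmb5 (266 ± 13) had more TPM in NS than the 3 immunoproteasome subunits, while Psmb7 had 72.9 ± 5.05 TPM. This order depends on the gene lengths used, such as 899 bases for Psmb5 and 2736 for Psmb8. Before division by length, Psmb8 had 1.67 and 1.52 times the counts of Psmb5 in the NS libraries. All further values are counts divided by DESeq2 size factors (normalized counts), which are comparable between libraries for 1 gene but not between genes.

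Of the 10 genes, 7 lie in the MHC on chromosome 17 (GRCm38, equal to mm10): Tapbp at 33915899 to 33929292, H2-K1 at 33996017 to 34000347, Psmb9 at 34181987 to 34187764, Tap1 at 34187553 to 34197225, Psmb8 at 34197721 to 34201454, Tap2 at 34203527 to 34216321 and H2-D1 at 35262730 to 35267499. B2m lies on chromosome 2 (122147686 to 122153083), and Psmb10 (105935735 to 105938444) and Nlrc5 (94434356 to 94527272) lie on chromosome 8. The annotated exons of Tap1 and Psmb9, on opposite strands, overlap by 212 bases. Psmb8 shares 498 exonic bases with Gm20496, Tap2 533 with Gm15821 and 165 with Gm20496, Tapbp 904 with Gm19412 and 149 with Zbtb22, and Nlrc5 78 with 9330175E14Rik. Of the standard catalytic subunits used in the ratios below, Psmb7 shares 405 with Nek6 and Psmb5 109 with Mir686. Whether counting used the strand was not given in the sources used here, and reads in these stretches may have been counted for either gene or for neither. H2-K1, H2-D1 and the H2-Q and H2-T genes are near-identical copies in parts, so the split of reads between them is uncertain.

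The start regions of these genes are shown because several of them moved together in the comparisons below, while H2-K1 and H2-D1 changed less. RefSeq windows from 250 bases before to 50 bases after the start site (GRCm38.p6) were held for 8 of the 10 genes and not for Tap2 or Nlrc5. By RefSeq, Tap1 (plus strand) and Psmb9 (minus strand) start 226 bases apart and point away from each other, so the 225 bases between them are the start region of both. Capitals mark every match, on either strand, to the core of the interferon-stimulated response element (a pair of GAAA units, 2 bases apart), GAANNGAAA (a form with 1 base fewer, which the first does not contain), the NF-kB consensus, the CCAAT box and TGACG (the core of the cAMP response element). The last of these and the shorter response element were added after the sequences had been read.
Tap1 and Psmb9 (chr17:34187331-34187555, plus strand): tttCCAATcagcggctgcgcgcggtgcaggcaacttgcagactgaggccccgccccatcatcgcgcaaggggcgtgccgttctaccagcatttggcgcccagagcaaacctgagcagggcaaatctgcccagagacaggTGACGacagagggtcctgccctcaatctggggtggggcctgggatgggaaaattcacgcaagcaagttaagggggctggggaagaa
B2m (chr2:122147537-122147686, plus strand): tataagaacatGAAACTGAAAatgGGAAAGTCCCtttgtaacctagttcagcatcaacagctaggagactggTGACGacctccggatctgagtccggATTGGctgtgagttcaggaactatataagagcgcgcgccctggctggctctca
H2-K1 (chr17:34000348-34000497, minus strand): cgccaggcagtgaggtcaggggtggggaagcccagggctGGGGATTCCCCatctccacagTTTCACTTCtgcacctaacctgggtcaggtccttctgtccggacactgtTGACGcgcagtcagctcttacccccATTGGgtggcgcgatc
H2-D1 (chr17:35262904-35263093, plus strand): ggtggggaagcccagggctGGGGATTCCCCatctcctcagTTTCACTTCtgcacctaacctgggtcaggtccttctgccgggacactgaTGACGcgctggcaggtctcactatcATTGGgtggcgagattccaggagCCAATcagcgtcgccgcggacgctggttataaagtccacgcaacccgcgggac
B2m alone of the 8 windows held the pair of GAAA units, which 3.44% of all 32851 RefSeq windows held. The shorter GAANNGAAA stood in H2-K1 and H2-D1 (7.52% of all windows), reading on the opposite strand. The NF-kB consensus was found in B2m, H2-K1 and H2-D1 (4.51% of all windows), where the match in H2-K1 and H2-D1 is a pair that overlap by all but 1 base. The CCAAT box was found in 6 of the 8 windows (37.4% of all) and TGACG in 5 (20.8%). The Tap1 and Psmb9 windows hold the same CCAAT and TGACG bases, each counted for both genes, and the H2-K1 and H2-D1 windows are alike. These counts therefore rest on fewer separate regions than windows. The 150 bases before the H2-K1 start and the matching stretch of H2-D1 thus carry the same 4 kinds of match in the same order (NF-kB, the shorter response element, the cAMP response core, the CCAAT box), and the Tap1-Psmb9 region holds no match to either response element or to the NF-kB consensus. The Psmb8 and Psmb10 windows held no match to any of the 5 motifs. Only exact matches in these RefSeq windows were sought. The RefSeq starts of Psmb8 (34198195), Tapbp (33919478) and H2-D1 (35263094) lie inside the gene extents given above, and bases further upstream were not searched.

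The class I heavy chains varied little. H2-K1 had 66808 and 70737 normalized counts in NS, 53163 and 58187 in NB9464 TCM, 62067 and 60424 in NBT3L TCM, 72513 and 66072 with R788, 61407 and 61343 in NB9464 TCM + R788, and 63478 and 62680 in NBT3L TCM + R788. Both TCM groups lay below NS, and the R788 libraries spanned the NS values. H2-D1 was likewise highest with R788 and in NS and lowest in NB9464 TCM. It had 108368 and 115805 normalized counts in NS, 83161 and 87618 in NB9464 TCM, 98023 and 98561 in NBT3L TCM, 125200 and 112069 with R788, 94366 and 94298 in NB9464 TCM + R788, and 99954 and 103141 in NBT3L TCM + R788. B2m, the light chain common to all class I molecules, did not follow its heavy chains. It had 102234 and 107506 normalized counts in NS, 71483 and 69164 in NB9464 TCM, 85009 and 85970 in NBT3L TCM, and 73248 and 51454 with R788. In NB9464 TCM + R788 it had 64352 and 62018, and in NBT3L TCM + R788 67010 and 65516. Every other group was below NS, and SJ8 gave the lowest B2m value of all libraries. Across the 12 libraries the log2 normalized counts of H2-K1 and H2-D1 had a Pearson correlation of 0.968, against 0.278 for H2-K1 and B2m, as a description of libraries that share their groups. The split of reads between H2-K1 and H2-D1 noted above bears on the first value.

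Tap1, which forms the transporter with Tap2, was the member that moved most. Its normalized counts were 7054 and 6783 in NS, 5641 and 4989 in NBT3L TCM, 3771 and 3975 in NB9464 TCM, 3286 and 3027 with R788, 2679 and 2367 in NBT3L TCM + R788, and 2300 and 2066 in NB9464 TCM + R788. In this order from high to low no 2 neighbouring groups overlapped. Its partner Tap2 stayed within 2312 and 2944 normalized counts in all 12 libraries and was not called in any of the 12 comparisons, with its lowest adjusted p (0.0857) for R788 in NBT3L TCM. In a fit of only the libraries of that comparison it was called lower (-0.26, adjusted p = 0.0198), as it was in the R788 average without replicate 3 (-0.17, adjusted p = 0.0196). Tapbp, which bridges transporter and heavy chain, had 20549 and 19697 in NS, 15439 and 18605 in NB9464 TCM, 22689 and 21951 in NBT3L TCM, 12815 and 14245 with R788, 14288 and 14299 in NB9464 TCM + R788, and 16076 and 15779 in NBT3L TCM + R788. Within each medium both R788 libraries were below both libraries without it. The spread between the NB9464 TCM libraries SJ3 and SJ4 was the widest of any Tapbp pair.

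The immunoproteasome subunits fell into different patterns. Psmb8, the subunit with chymotrypsin-like activity, had 5977 and 5990 normalized counts in NS, 5716 and 6119 in NB9464 TCM, 6662 and 6681 in NBT3L TCM, 3929 and 3503 with R788, 5234 and 5126 in NB9464 TCM + R788, and 5841 and 5737 in NBT3L TCM + R788. Its low group was R788 without TCM. Psmb9 had 3044 and 3781 in NS, 1871 and 2087 in NB9464 TCM, 2409 and 2576 in NBT3L TCM, 2713 and 2189 with R788, 2039 and 1793 in NB9464 TCM + R788, and 1899 and 2153 in NBT3L TCM + R788. All groups were below NS, and the 2 groups with NB9464 TCM overlapped. Psmb10 had 4813 and 5277 in NS, 3401 and 3782 in NB9464 TCM, 4088 and 3822 in NBT3L TCM, 3984 and 3261 with R788, 2994 and 2672 in NB9464 TCM + R788, and 2787 and 3079 in NBT3L TCM + R788. For Psmb10 the R788 libraries overlapped both TCM groups, and these 3 groups lay between NS and the 2 combined groups, which overlapped each other.

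Nlrc5, the transactivator, showed the same stepwise order as Tap1. It had 3208 and 3193 normalized counts in NS, 2381 and 2292 in NBT3L TCM, 2207 and 2099 in NB9464 TCM, and 2040 and 1938 with R788. The combined groups were lowest, with 1294 and 1260 in NBT3L TCM + R788 and 1090 and 1398 in NB9464 TCM + R788, and they overlapped. The Pearson correlation of log2 normalized counts with Tap1 over the 12 libraries was 0.938 for Nlrc5, 0.930 for Psmb10 and 0.868 for B2m, again as a description.

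**Figure D1:**
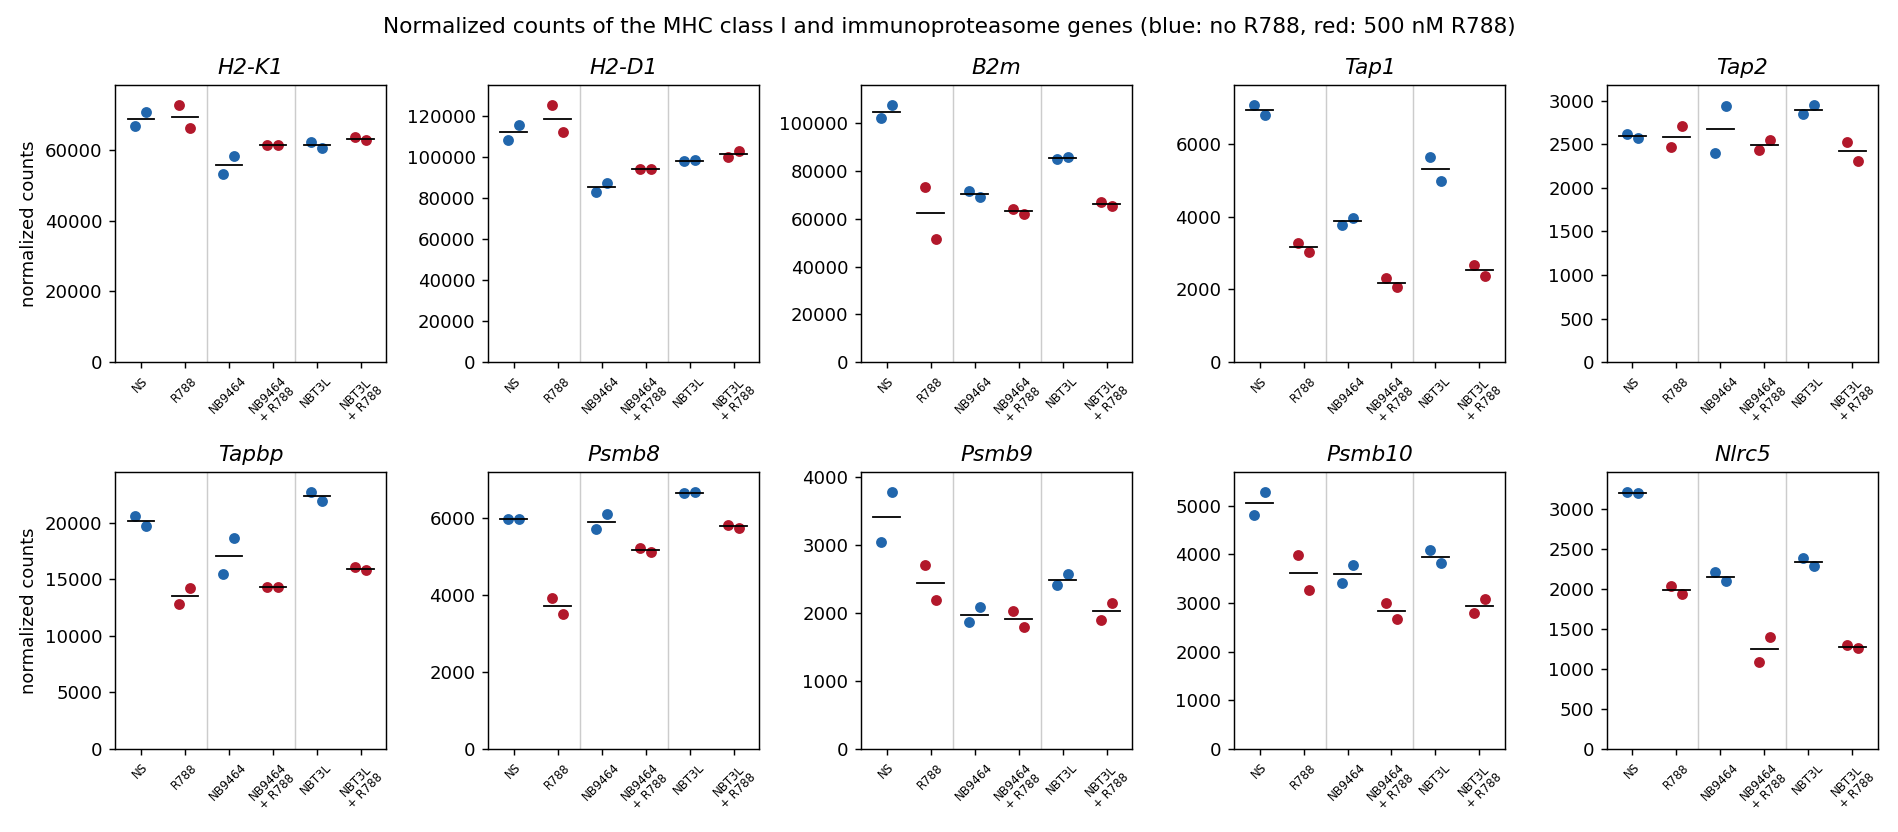
Normalized counts (y axis, linear from 0) of the 10 genes in each of the 12 libraries, by group; each point is 1 library, the line is the group mean, blue is without and red with 500 nM R788. Tap1 and Nlrc5 step down from NS to the combined groups, whereas Tap2 stays between 2312 and 2944, and the R788 libraries of H2-K1 and H2-D1 overlap NS.

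The first comparison asked how TCM changed these genes in macrophages. In NB9464 TCM 8 of the 10 genes were lower than in NS and none was higher, with a median log2 fold change of -0.44 against 0.02 over all genes tested. Of all 16281 genes, 16.9% were called lower and 34.1% in either direction. The largest decreases were in Tap1 (log2 fold change -0.84, SE 0.093, adjusted p = 3.99e-18) and Psmb9 (-0.79, SE 0.133, adjusted p = 2.46e-08). B2m fell by 0.58 (SE 0.149, adjusted p = 0.00051), Nlrc5 by 0.57 (SE 0.113, adjusted p = 2.65e-06) and Psmb10 by 0.49 (SE 0.108, adjusted p = 3.09e-05). The heavy chains decreased less, H2-D1 by 0.39 (SE 0.057) and H2-K1 by 0.30 (SE 0.058). Tapbp fell by 0.24 (adjusted p = 0.00648), a call that was lost without replicate 3 (log2 fold change -0.11) or without replicate 1. Psmb8 (-0.02, 95% interval -0.16 to 0.13) and Tap2 (0.04, -0.17 to 0.25) did not pass the test.

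In NBT3L TCM 6 of the 10 genes were lower than in NS, none was higher and the median was -0.24, beside 17.3% of all genes called lower and 35.3% in either direction. Psmb9 and Nlrc5 each fell by 0.45 (adjusted p = 0.00248 and 0.000281), Tap1 by 0.38 (adjusted p = 0.000206) and Psmb10 by 0.35 (adjusted p = 0.00423). H2-D1 (-0.19, adjusted p = 0.00319) and H2-K1 (-0.17, adjusted p = 0.0125) were lower by small amounts. B2m (-0.29, 95% interval -0.59 to -0.00, adjusted p = 0.114), Tapbp (0.15, adjusted p = 0.122), Psmb8 (0.16, adjusted p = 0.0757) and Tap2 (0.16, adjusted p = 0.272) did not pass. Without replicate 2, an NS library, 2 genes were called in place of 6, and the Psmb9 value was -0.29. Both comparisons share the NS libraries, so their values stand side by side and are not independent. The SE of B2m was the widest of the 10 genes here (0.149), and all groups share 1 dispersion estimate per gene, to which the R788 pair of 73248 and 51454 contributes. In a fit of only the 4 libraries compared, 9 genes were called in NBT3L TCM, with B2m lower (-0.28, adjusted p = 8.33e-10) and Tapbp (0.17, adjusted p = 0.00287) and Psmb8 (0.17, adjusted p = 0.0182) higher. The share of all genes called in that fit, or without replicate 2, was not counted.

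Between the conditioned media, 3 of the 10 genes were lower in NB9464 TCM than in NBT3L TCM and none was higher (median -0.19, with 5.72% of all genes called lower, 3.69% higher and 9.40% in either direction). These were Tap1 (-0.46, SE 0.094, adjusted p = 2.92e-05), Tapbp (-0.39, SE 0.077, adjusted p = 1.08e-05) and H2-D1 (-0.20, SE 0.057, adjusted p = 0.00465). The H2-D1 call was lost without replicate 3, 5 or 6 and with scaling to total counts. The other 7 genes had values between -0.33 (Psmb9) and -0.12 (Tap2 and Nlrc5), and all 10 were on the same side of 0. The count was 2 in place of 3 without replicate 3, 5 or 6.

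Neutrophil genes moved with TCM. The 4 genes (Ly6g, S100a8, S100a9, Elane) summed to between 406 and 439 TPM in NS, between 651 and 700 TPM in NB9464 TCM and between 732 and 742 TPM in NBT3L TCM. S100a8, a calcium-binding protein that activated macrophages also make, rose by 2.26 in NB9464 TCM and by 2.66 in NBT3L TCM, and the higher sum rests on this gene. S100a9 was lower in NBT3L TCM (-0.36), and Ly6g was near 0 in every library. Elane, a neutrophil protease, was called lower with either TCM, from 69.5 and 44.6 normalized counts in NS to 0 and 5.57 in NB9464 TCM and 0 in both NBT3L TCM libraries. The part of such cells in the values above was not tested.

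The next comparisons asked how R788 changed the genes within each medium. Without TCM, R788 lowered 7 of the 10 genes and raised none, with a median of -0.53 and 15.0% of all genes called lower (11.6% higher and 26.6% in either direction). Tap1 fell by 1.13 (SE 0.093, adjusted p = 6.3e-32), to 0.456 of its NS level. B2m decreased by 0.75 (SE 0.149, adjusted p = 4.83e-06), Nlrc5 by 0.69 (SE 0.113, adjusted p = 1.79e-08), Psmb8 by 0.69 (SE 0.072, adjusted p = 1.01e-19) and Tapbp by 0.57 (SE 0.077, adjusted p = 2.3e-12). Psmb9 and Psmb10 each fell by 0.48 (adjusted p = 0.00176 and 7.49e-05). H2-K1 (0.01, 95% interval -0.10 to 0.12), H2-D1 (0.08, -0.03 to 0.19) and Tap2 (-0.00, -0.21 to 0.20) did not pass the test. Without replicate 8 (library SJ8) 6 genes were lower, H2-D1 was higher (0.16, adjusted p = 0.00491) and Psmb9 was no longer called (-0.33, adjusted p = 0.0596), while B2m remained lower (-0.52). Psmb9 was not called without replicate 2 either (-0.31), and with scaling to total counts H2-D1 was called higher (0.15, adjusted p = 0.0219).

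In NB9464 TCM, R788 lowered 5 of the 10 genes (median -0.17, with 8.70% of all genes called lower, 5.79% higher and 14.5% in either direction). Tap1 fell by 0.83 (SE 0.095, adjusted p = 2.76e-16) and Nlrc5 by 0.79 (SE 0.115, adjusted p = 2.92e-10), and both calls held in the 11 other fits tried. Psmb10 fell by 0.34 (adjusted p = 0.0125), Tapbp by 0.25 (adjusted p = 0.00873) and Psmb8 by 0.19 (adjusted p = 0.0441). These 3 calls depended on single libraries. Without replicate 4 all 3 were lost (Tapbp at -0.11) and H2-K1 was called higher (0.21, adjusted p = 0.0152), without replicate 9 Psmb10 alone of the 3 was called, and without replicate 10 none was. H2-K1 and H2-D1 each had a value of 0.14 (adjusted p = 0.0722 and 0.0584), and both were called higher in the fit of only the 4 libraries compared (adjusted p = 0.0446 and 0.014).

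In NBT3L TCM the same 5 genes were lower with R788 (median -0.33, with 7.24% of all genes called lower, 5.33% higher and 12.6% in either direction). Tap1 decreased by 1.07 (SE 0.095, adjusted p = 8.81e-28), Nlrc5 by 0.87 (SE 0.115, adjusted p = 2.6e-12), Tapbp by 0.49 (SE 0.077, adjusted p = 1.01e-08), Psmb10 by 0.43 (adjusted p = 0.00103) and Psmb8 by 0.20 (adjusted p = 0.0329). B2m (-0.37, adjusted p = 0.076) and Psmb9 (-0.30, adjusted p = 0.12) missed the threshold. Without replicate 5 or 11, 3 genes were called. The Psmb8 call of either TCM was lost with edgeR in place of DESeq2.

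Averaged over the 3 media, with 6 libraries in each arm, R788 lowered 7 of the 10 genes (16.2% of all genes were called lower, 13.4% higher and 29.6% in either direction). Tap1 fell by 1.01 (SE 0.054), Nlrc5 by 0.78 (SE 0.066), Tapbp by 0.44 (SE 0.044), Psmb10 by 0.42 (SE 0.063), B2m by 0.42 (SE 0.086), Psmb8 by 0.36 (SE 0.042) and Psmb9 by 0.27 (SE 0.077). H2-D1 was the only member called higher, by 0.09 (SE 0.033, adjusted p = 0.0212), and this call was lost when any of 7 libraries was left out. H2-K1 had 0.06 (adjusted p = 0.137, and 0.09 with an adjusted p of 0.0206 under total-count scaling) and Tap2 -0.12 (adjusted p = 0.134).

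**Figure D2:**
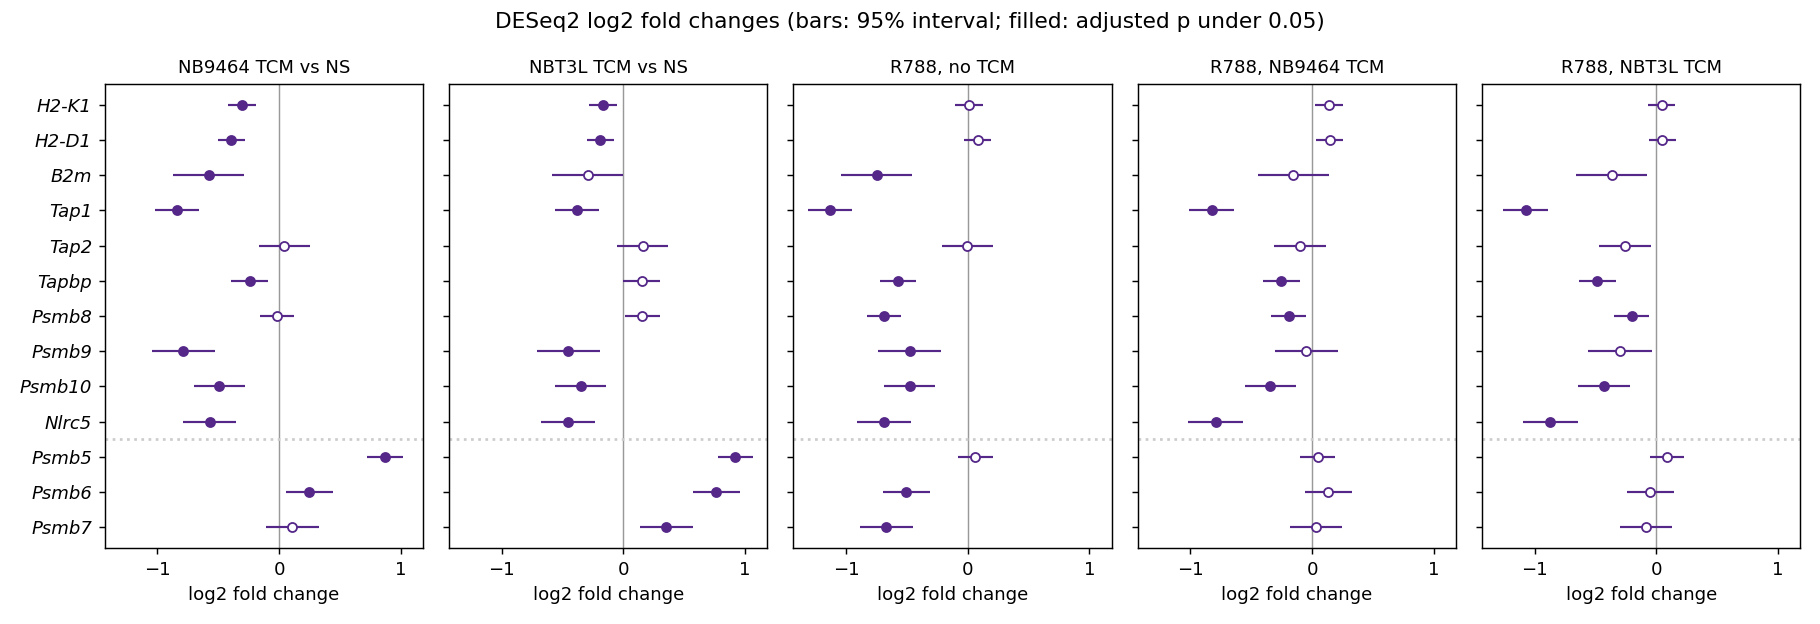
DESeq2 log2 fold change (x axis) of the 10 genes and, below the dotted line, of the 3 standard catalytic subunits, in 5 comparisons; points are estimates, bars 95% intervals, and filled points have an adjusted p under 0.05. Tap1 lies between -1.13 and -0.38 in all 5 panels, Psmb5 is at 0.87 and 0.92 with TCM and near 0 with R788.

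Interaction contrasts tested whether R788 acted differently in the 3 media. Psmb8 fell less with R788 in TCM than without it, by 0.50 on the log2 scale in NB9464 TCM (SE 0.102, adjusted p = 3.23e-05) and by 0.48 in NBT3L TCM (SE 0.102, adjusted p = 6.57e-05), and this held without SJ8 (0.42 and 0.40). In NB9464 TCM the effect on B2m (difference 0.60, adjusted p = 0.0331) and Tapbp (0.32, adjusted p = 0.0254) was also smaller. These were the 3 of 10 genes called there, against 12.5% of all genes in either direction, and Psmb8 was the 1 of 10 in NBT3L TCM, against 10.1%. The B2m and Tapbp calls are fragile: each was lost under 8 of 15 alternatives, the Tapbp difference was 0.19 without replicate 3 and that of B2m 0.36 without replicate 8. The number called in NB9464 TCM was 1 without replicate 3, 9 or 10, 2 without replicate 1, 2 or 4, and 5 without replicate 7, and in NBT3L TCM it was 2 without replicate 7. The effect on Tap1 did not pass as different (0.31, 95% interval 0.04 to 0.57, adjusted p = 0.105 in NB9464 TCM; 0.06, -0.20 to 0.32 in NBT3L TCM). For Nlrc5 the differences were -0.11 (-0.42 to 0.21) and -0.19 (-0.50 to 0.13). Between the 2 TCM, DESeq2 called no member (0.706% of all genes were called). The lowest adjusted p was 0.553, for Tapbp (difference 0.23, 95% interval 0.02 to 0.45), which was called without replicate 4. At an unadjusted p under 0.05, DESeq2 gave 1 member, and edgeR called none after adjustment.

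Compared with NS, cells given both TCM and R788 had the lowest levels of Tap1 and Nlrc5. In NB9464 TCM + R788 9 of the 10 genes were lower (39.5% of all genes were called in either direction and 19.4% lower), with Tap1 at 0.316 and Nlrc5 at 0.388 of the NS level (log2 fold change -1.66 and -1.36). In NBT3L TCM + R788 7 were lower (39.8% in either direction, 19.7% lower), with Tap1 at 0.365 and Nlrc5 at 0.399 of NS. Psmb10 was at 0.562 and 0.581, Psmb9 at 0.562 and 0.594 and B2m at 0.603 and 0.632 of NS. H2-K1 stayed at 0.892 and 0.917 and H2-D1 at 0.842 and 0.906. With scaling to total counts, which moved the median of all genes to -0.20 in NBT3L TCM + R788, all 10 genes were called lower there, H2-K1 at -0.34 and Tap2 at -0.32. Under that scaling 4991 of all 16281 genes were called lower there, against 3205 with size factors. These comparisons share the NS libraries with the TCM comparisons above.

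The standard catalytic subunits, which compete with the immunoproteasome subunits for the same places in the 20S core, moved differently. Psmb5 rose by 0.87 in NB9464 TCM (SE 0.074, adjusted p = 6.32e-31) and by 0.92 in NBT3L TCM (SE 0.074, adjusted p = 2.54e-34), with 3569 and 3945 normalized counts in NS and at least 6527 in every TCM library. R788 did not change it past the threshold in any medium. Psmb6 rose by 0.25 in NB9464 TCM (adjusted p = 0.0372, not called without replicate 1 at 0.16, without replicate 4 at 0.15 or with total-count scaling at 0.12) and by 0.76 in NBT3L TCM, and without TCM it fell with R788 by 0.51 (-0.33 without SJ8). Psmb7 rose by 0.35 in NBT3L TCM (not called without replicate 1 at 0.26 or with total-count scaling at 0.12) and fell by 0.67 with R788 without TCM.

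The ratio of an immunoproteasome subunit to the subunit it replaces can be read within a library and does not depend on the scaling between libraries. It is a ratio of counts, so its change between libraries and not its level is meaningful. All 3 ratios were lower with TCM. The log2 ratio of Psmb8 to Psmb5 had a mean of 0.67 ± 0.10 (SD, n = 2) in NS, -0.09 ± 0.0031 in NBT3L TCM and -0.22 ± 0.034 in NB9464 TCM, and -0.08 ± 0.14 with R788, -0.46 ± 0.017 in NB9464 TCM + R788 and -0.38 ± 0.029 in NBT3L TCM + R788. The difference between libraries with and without TCM was -0.58 for Psmb8 to Psmb5, -1.25 for Psmb9 to Psmb6 and -0.93 for Psmb10 to Psmb7. Each had an exact p of 0.00444 in a two-sided permutation test that shuffled libraries within R788 status, the smallest that its 225 arrangements allow (0.00889 adjusted over the 6 ratio tests). For Psmb9 to Psmb6 the 8 TCM libraries lay between -3.04 and -2.52 and the 4 others between -1.57 and -1.42, and for Psmb10 to Psmb7 between -0.74 and -0.18 against 0.34 to 0.63.

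R788 lowered the Psmb8 to Psmb5 ratio by 0.43 (exact two-sided permutation p = 0.00926 within medium, the smallest that 216 arrangements allow, 0.0139 adjusted). The difference was -0.24 in NB9464 TCM, -0.29 in NBT3L TCM and -0.75 without TCM. The other ratios did not pass: -0.13 for Psmb9 to Psmb6 (exact permutation p = 0.0741, adjusted 0.0889) and -0.17 for Psmb10 to Psmb7 (exact permutation p = 0.13). For both, the value without TCM was above 0 (0.039 and 0.20) and those in TCM were below 0. The Psmb9 to Psmb6 test passed without replicate 1 (-0.15, exact permutation p = 0.0278) or without replicate 8 (-0.14, exact permutation p = 0.037).

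**Figure D3:**
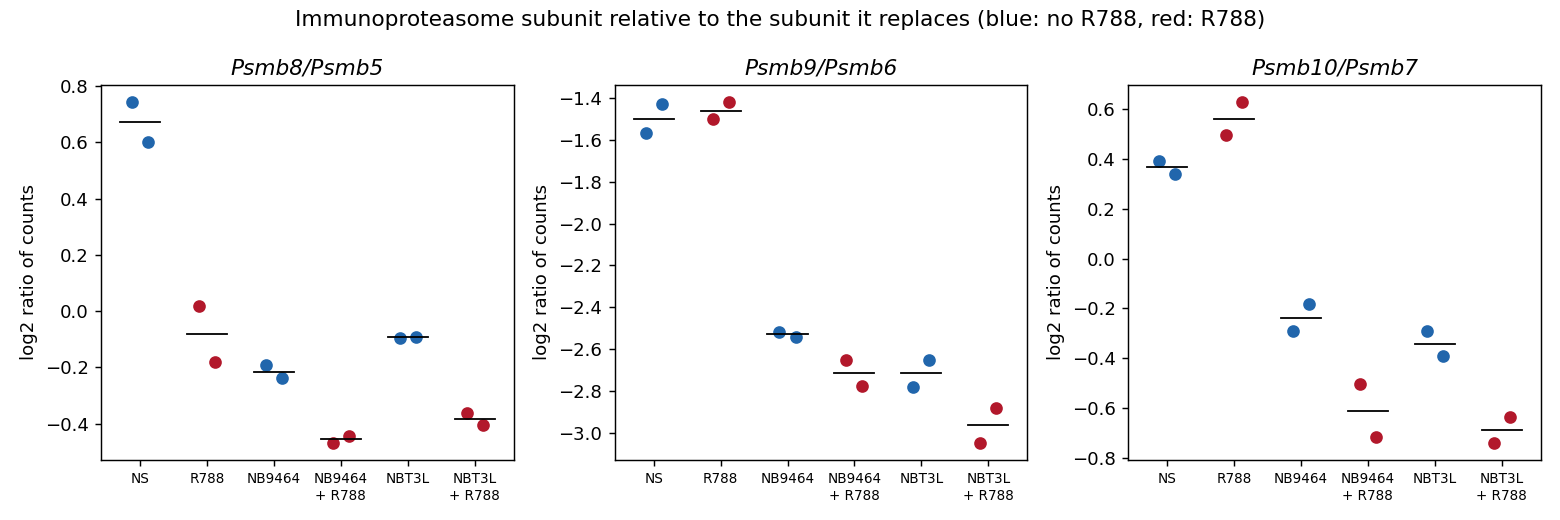
Log2 ratio of counts (y axis) of each immunoproteasome subunit to the standard subunit it replaces, by group; each point is 1 library, lines are group means, blue is without and red with R788. The TCM groups lie below NS in all 3 panels, with no overlap between TCM and other libraries for Psmb9/Psmb6 and Psmb10/Psmb7.

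Other proteasome subunits were more often higher than lower with TCM. In NB9464 TCM 4 of the 11 other 20S subunits and 12 of the 18 tested 19S subunits were higher, with 1 19S subunit lower (Psmd8, log2 fold change -0.29, adjusted p = 3.54e-05), and in NBT3L TCM 7 of 11 and 15 of 18 were higher with none lower (17.2% and 18.0% of all genes were called higher). Psma6 rose by 0.68 and 0.94 and Psma7 by 0.41 and 0.62 in the core, and Psmd3 rose by 0.39 and 0.58 in the 19S particle, which recognizes ubiquitinated substrates. This direction depends on scaling: with total counts in place of size factors the median of all genes moved to -0.10 in NB9464 TCM and -0.23 in NBT3L TCM, the 20S list in NB9464 TCM turned to 2 higher and 3 lower and its median to -0.03, and the 19S list to 4 higher and 2 lower, while 8 of the 10 class I and immunoproteasome genes were lower under that scaling too. In NBT3L TCM under that scaling 4 core subunits were higher and 1 lower, 7 19S subunits were higher and 2 lower, and 7 of the 10 genes were lower. Of all 16281 genes, 2079 were then called higher and 3796 lower in NB9464 TCM, and 1826 higher and 4993 lower in NBT3L TCM. With size factors, 2747 and 2817 were called lower. Without TCM, R788 lowered 10 of 11 core subunits and 14 of 18 19S subunits (9 and 14 without SJ8), such as Psmb2 (-0.63) and Psmd12 (-0.63), whereas in NB9464 TCM it lowered 0 and 1 and in NBT3L TCM 0 and 3.

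Genes next to the loading step were split. Of the proteasome activators and the assembly factor Pomp (5 genes), Psme1 and Psme2 encode the partners of the PA28 ring, which opens the core. Psme1 fell with NB9464 TCM (-0.49) and NBT3L TCM (-0.33), whereas Psme2 rose (0.75 and 1.09). Of 5 genes for peptide trimming and folding in the endoplasmic reticulum, the aminopeptidase Erap1 fell in both TCM (-0.57 and -0.56) and with R788 in all 3 media (-0.39, -0.34 and -0.48), and Tapbpl, a tapasin-related editor, fell with both TCM (-0.61 and -0.38). The chaperone Calr rose with TCM (0.60 and 0.98), as did the disulfide isomerase Pdia3 (0.39 and 0.69). All 5 were lower with R788 without TCM, beside 15.0% of all genes, with Calr at -0.80. Not all of these calls held without SJ8, where the median of the 5 was -0.535, against -0.390 with it.

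Among 15 other class I or class I-like chains, 11 were tested. In NB9464 TCM 2 were higher and 5 lower (18.2% and 45.5%, against 17.2% and 16.9% of all genes). In NBT3L TCM 3 were higher and 4 lower (27.3% and 36.4%, against 18.0% and 17.3%). H2-Q4 fell by 1.85 and 1.92, from 2903 and 2970 normalized counts in NS to between 714 and 860 in the 4 libraries with TCM alone, and Cd1d1, which presents lipids, rose by 1.25 and 1.60. H2-M2 rose from 3.76 and 26.5 normalized counts in NS to 169 in both NB9464 TCM libraries and to 448 and 505 in NBT3L TCM. R788 lowered 3 of the 11 in each medium, and they were H2-T22, H2-T23 and H2-T24 each time, while H2-Q6, singled out after its values were seen, was higher in NB9464 TCM (2.18). H2-T23, which encodes Qa-1 and displays class I leader peptides, fell by 0.84 in NBT3L TCM, 0.71 in NB9464 TCM and 0.65 without TCM, and H2-T24 by 2.04, 2.69 and 1.55. These genes are near-identical copies in parts, so their counts are uncertain. Of the 5 class II genes, H2-Eb1, H2-Aa and Cd74 were lower and H2-Ab1 was higher with either TCM alone. R788 lowered none of the 5 and raised 1 in each medium, Cd74 (0.35) without TCM and H2-Ab1 in NB9464 TCM (0.50) and NBT3L TCM (0.39). Of all genes, 11.6%, 5.79% and 5.33% were called higher in these media. The H2-Ab1 call in NBT3L TCM was lost with edgeR.

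Of 23 transcription factors, receptors and ligands upstream of the class I genes 21 were tested, and Ifng had no counts in any library. R788 lowered 4 in NBT3L TCM and 3 in each of the other media, shares of 19% and 14.3% of the 21, which without TCM is close to the 15.0% of all genes called lower. In NB9464 TCM and NBT3L TCM, 8.70% and 7.24% of all genes were called lower with R788. In the order no TCM, NB9464 and NBT3L, Stat2, which carries type I interferon signals with Irf9, fell by 1.11, 1.34 and 1.46, and Irf9 by 0.34, 0.71 and 0.80. Irf1 fell in NBT3L TCM by 0.28. In the same order, higher calls numbered 4, 5 and 3 (19%, 23.8% and 14.3%, against 11.6%, 5.79% and 5.33% of all genes). In TCM alone 8 were lower and 4 higher with NB9464 and 7 lower and 6 higher with NBT3L, among them the kinase Jak2, which rose by 1.39 and 1.87, the interferon gamma receptor chain Ifngr1, which fell by 0.82 and 0.89, and Stat2, which fell by 0.95 and 0.44. The 6 interferon-stimulated genes (Isg15, Ifit1, Ifit3, Rsad2, Irf7, Usp18) were all lower with R788 in each medium (6 without SJ8 too), with medians of -2.68, -2.76 and -2.66. With TCM alone, 6 of them were lower with NB9464 and 3 with NBT3L. Irf7, the transcription factor that amplifies type I interferon responses, had 25056 and 25319 normalized counts in NS, 7585 and 7576 in NB9464 TCM, 11613 and 11324 in NBT3L TCM, 4008 and 4138 with R788, 1095 and 1076 in NB9464 TCM + R788, and 1926 and 1775 in NBT3L TCM + R788.

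**Figure D4:**
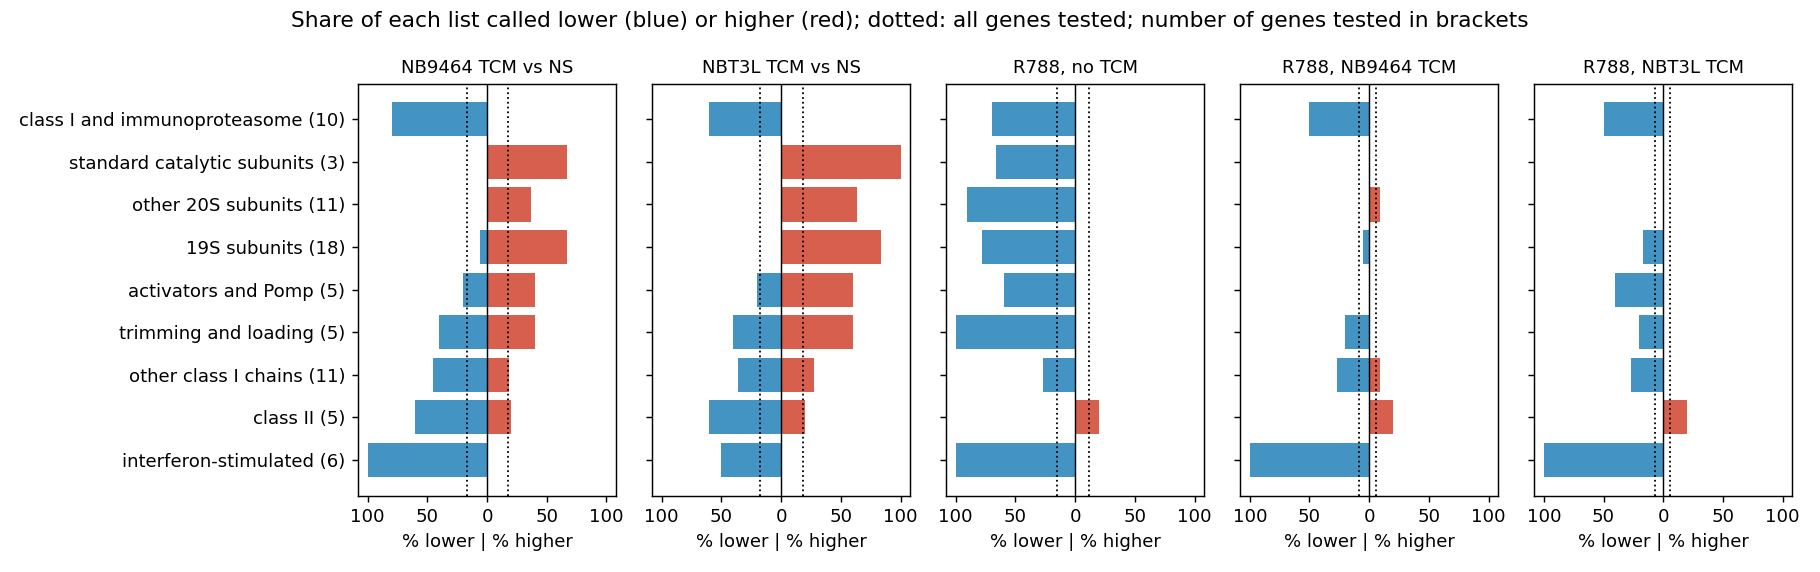
Percent of the tested genes of each list that were called lower (blue, to the left) or higher (red, to the right) in 5 comparisons; dotted lines give the share over all 16281 genes, and the number tested stands in brackets. The 20S and 19S lists are on the higher side with TCM, which turns for the 20S list in NB9464 TCM under total-count scaling, and on the lower side with R788 without TCM.

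Genes with a pattern over the 12 libraries like that of Tap1 were sought among 10705 genes with at least 100 normalized counts on average. The 10 genes described here were left out of this search. The most alike were Parp12 (Pearson r of log2 normalized counts 0.989), Parp9 (0.988), Irgm1 (0.984), Irf7 (0.983) and Ifi204 (0.982). Among the same searched genes, those most like H2-K1 were Cln6 (0.927), Glod4 (0.926), Epc1 (0.924), Dazap2 (0.914) and Lgmn (0.911). The libraries fall into 6 groups of 2, so these values rest on few separate conditions and describe the pattern only.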

How the data were processed

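Read counts per Ensembl gene, whole numbers not divided by length or depth, were deposited by the authors for 12 libraries made from poly(A)-selected RNA. The tools, per the labels, were STAR 2.6.1d, Salmon 1.4.0, SAMtools 1.9, Picard 2.26 and MultiQC 1.11 with mm10. The strand setting, the handling of reads that map to several places and the counting of mates are not given in the sources used here. Even numbers made up 65.2% to 67.9% of counts from 1 to 40, and counts divided by 2 were tried. The labels state paired reads and 2 libraries per group, the study's methods single reads in triplicate.

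The 10 genes, the lists and the rule for named genes were chosen with earlier results of these data known. All 10 genes and Psmb5, Psmb6 and Psmb7 are named in each comparison, and from each other list at most 4 called genes with the largest change and a mean of at least 100 normalized counts. Symbols came from GENCODE M21. The 16281 genes that reached 10 counts in 2 or more libraries were fitted with DESeq2 1.42.0 in R 4.3.3 as 6 group means over the 12 libraries, with median-of-ratios scaling, Wald tests and Benjamini-Hochberg adjustment over all genes of a comparison. A gene was called at an adjusted p under 0.05, log2 fold changes were not shrunken, and both scripts of tests were tested on simulated data. TPM values used the gene lengths of the table. Ratios of subunits were tested by exact permutation with 6 tests in the family. Promoter windows were RefSeq's (GRCm38.p6). Alternatives were edgeR 4.0.16, other scalings, leaving out the count filter, keeping genes with a mean of 50 counts or more, a 2-fold minimum, fits of only the libraries compared and leaving out each library. Total-count scaling, and the alternative counts of the other lists, were added after seeing the data. All count columns were used. The values of 2 genes of the other lists and the matches of 1 motif are not reported here, and both genes stay in the counts of their lists.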

Additional observations from a re-analysis of the deposited data

Results flagged for a closer look

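The effect of R788 differed between media for several genes, by the interaction contrast of DESeq2 with an adjusted p under 0.05. Among the class I and immunoproteasome genes, the effect in NB9464 TCM lay above that without TCM by 0.60 for B2m, 0.32 for Tapbp and 0.50 for Psmb8 on the log2 scale, and the effect in NBT3L TCM lay above it by 0.48 for Psmb8. The standard subunits Psmb6 and Psmb7 were flagged in the same way. Their differences were 0.64 (adjusted p = 0.000104) and 0.70 (adjusted p = 0.00016) for NB9464 TCM, and 0.46 (adjusted p = 0.0126) and 0.58 (adjusted p = 0.00316) for NBT3L TCM. R788 lowered Psmb8 more without TCM than in either TCM, and B2m and Tapbp more without TCM than in NB9464 TCM. The differences of B2m and Tapbp for NBT3L TCM were not called. Psmb6 and Psmb7 were lower with R788 only without TCM and were not called in either TCM (0.13 and 0.03 in NB9464 TCM, -0.05 and -0.09 in NBT3L TCM). Without replicate 8 (SJ8), which belongs to the R788 group without TCM, the differences were 0.36 for B2m, 0.46 for Psmb6 and 0.50 for Psmb7 in NB9464 TCM. In NBT3L TCM they were 0.27 for Psmb6, then not called (adjusted p = 0.0643), and 0.39 for Psmb7. No group had enough libraries for a check of single outlying values.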

How the results depend on the processing

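No paired analysis was possible because the labels number the libraries 1 to 12 and no number is shared between groups. Of 1963 values of single genes under alternatives, 1832 kept direction and side of the threshold, 97 lost the call, 34 gained one and no called value changed sign, while 52 values that were not called changed sign. Apart from the 2-fold minimum, no alternative lost a call of Tap1 or Nlrc5 in the comparisons between 2 groups or in the R788 average. Psmb8 with R788 in TCM lost its call under 7 of 11 alternatives in NB9464 TCM and 6 of 11 in NBT3L TCM.

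With a 2-fold minimum, the number of members called was 0 for NB9464 TCM against NS, NBT3L TCM against NS, NB9464 TCM against NBT3L TCM, R788 in NB9464 TCM and the interactions of R788 with either TCM, 1 for R788 against NS, R788 in NBT3L TCM and the R788 average, and 2 for each combined group against NS. With only the libraries compared it was 9 for NBT3L TCM against NS and 7 for R788 in NB9464 TCM, each with 2 higher, 5 for NB9464 TCM against NBT3L TCM, 8 for R788 in NBT3L TCM, 1 for the interaction of R788 with NB9464 TCM and 1 for that between the 2 TCM. Total-count scaling left 1 in the interaction with NB9464 TCM, where 661 of all 16281 genes were called higher and 1442 lower. The cause of these changes was not tested, beyond the stricter rule of the 2-fold minimum. The share of all genes called was not counted for the 2-fold minimum or for fits of only the libraries compared. It was also not counted for leaving out a library other than SJ8.

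Leaving out 1 library gave 7 to 8 members called for NB9464 TCM against NS, 2 to 6 for NBT3L TCM against NS, 2 to 4 for NB9464 TCM against NBT3L TCM, 6 to 7 for R788 against NS, 2 to 4 for R788 in NB9464 TCM, 3 to 4 for R788 in NBT3L TCM, 7 to 9 for the R788 average, 1 to 5 and 1 to 2 for the interactions with NB9464 and NBT3L TCM, 0 to 1 for that between the TCM, and 7 to 8 and 6 to 7 for the combined groups.

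For the subunit ratios, the R788 difference of Psmb8 to Psmb5 was -0.24 in NB9464 TCM alone, -0.29 in NBT3L TCM alone and -0.75 without TCM, and its TCM difference -0.34 with and -0.83 without R788. For Psmb9 to Psmb6 the R788 difference was -0.25 in NBT3L TCM alone and 0.039 without TCM, and the TCM difference -1.37 with and -1.12 without R788. For Psmb10 to Psmb7 the R788 differences were -0.37, -0.35 and 0.20 in NB9464 TCM, NBT3L TCM and no TCM, and the TCM differences -1.21 with and -0.66 without R788. With 2 libraries per group these single-medium values carry no test. Leaving out 1 library moved the R788 differences between -0.46 and -0.40 (Psmb8 to Psmb5), -0.16 and -0.10 (Psmb9 to Psmb6) and -0.21 and -0.14 (Psmb10 to Psmb7). The Psmb9 to Psmb6 difference passed the exact permutation test without replicate 1 (-0.15) or 8 (-0.14).

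With 2 libraries per group the calls rest on the variance model shared by all groups. With counts divided by 2, Psmb8 with R788 in NB9464 TCM lost its call (-0.19, adjusted p = 0.0599). The SE was widest for B2m. Normalized counts assume that most genes do not change.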
